A study of Rattus norvegicus with 30 samples.

Results

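The matrix metalloproteases (MMPs), the ADAMTS proteases with their ADAMTS-like relatives, and the tissue inhibitors of metalloproteases (TIMPs) were followed in sorted rat lung cells after a vascular operation. Members were all rows whose gene name is Mmp, Adamts or Adamtsl with a number, or Timp with a number. This gave 50 of the 30562 genes in the table: 23 MMPs, 19 ADAMTS, 5 ADAMTS-like genes and 3 TIMPs (Timp1, Timp3 and Timp4). Of these, 36 passed the filter on low counts and entered the test, which covered 16171 genes. The other 14 had too few counts to pass it and enter the test.

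MMPs and ADAMTS are zinc proteases that cut collagens, proteoglycans and other proteins of the extracellular matrix, and most are made as inactive precursors that another protease, often furin, has to cut. TIMPs bind the active site of MMPs and, for some pairs, of ADAMTS proteases, and so hold them back. In blood vessels the balance of the groups is known to shape the basement membrane under the endothelium, the elastic and collagen fibres of the wall, and the contact between endothelial cells and the mural cells around them.

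The libraries came from wild-type rat lung cells bound to beads that carry an antibody to CD31, which marks the endothelial surface, harvested 3 weeks after surgery. One arm had sham surgery and the other the Glenn operation, in which a caval vein is sewn to a pulmonary artery and the lung on that side no longer receives blood draining from the liver. Within each arm the rats ate a control diet, a vitamin A-deficient diet or a vitamin A-excess diet, which gave 6 groups of 5 libraries. The comparisons are those of the operation within each diet, of the diets within each arm, and of both together. Strain, age and sex are not given in the labels. They also do not say that replicates are separate animals, so p-values measure only the spread between these libraries, which may be technical in part.

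Totals ranged from 22 to 77.6 M estimated counts per library (median 40 M). The library numbers fall in 2 series, A (22 libraries) and B (8 libraries, in the deficient-diet groups and the Glenn excess group), and the fit carried a term for them. The gene RT1-CE16 was high in 13 libraries and low in 17. All sham excess libraries were low, and each of the other groups held both levels. Both sexes were present in each group by the Y-linked gene Ddx3y, so the libraries of a group did not all come from the same animal. Whether any of them share an animal is not known. Endothelial markers were high in every library, summing to 8399 to 10585 CPM after sham and 6164 to 8682 CPM after Glenn surgery, where 2 of 8 rose and 5 fell. Markers of other cells were present too. The sum of 9 mural markers (smooth muscle cells and pericytes, such as Acta2, Myh11 and Pdgfrb) ran from 178 to 367 CPM after sham and 535 to 1825 CPM after Glenn surgery without overlap, and all 9 rose. The sum of 8 fibroblast markers ran from 1409.7 to 3379.9 CPM after sham and 1945 to 4836 CPM after Glenn surgery, with 6 of 8 higher and none lower. Epithelial markers, led by Sftpc, summed to 25404 to 44164 CPM after sham and 19008 to 40219 CPM after Glenn surgery. Of the 7, 2 rose and 2 fell. Macrophage markers summed to 29.2 to 58.2 CPM after sham and 44.5 to 74.8 CPM after Glenn surgery, with Msr1, Mrc1 and Csf1r higher, Cd68 lower, and Marco at 0 in every sham library. Neutrophil markers stayed at 0.793 to 9.53 CPM. Lymphocyte markers summed to 1.89 to 20.7 CPM after sham and 0.374 to 8.33 CPM after Glenn surgery. The pan-leukocyte marker Ptprc ran from 0.569 to 18.9 CPM and 0.890 to 8.69 CPM. Both were highest in sham control replicate 3.

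After Glenn surgery most tested members stood at another level than after sham. Averaged over the 3 diets, 28 of 36 changed (21 rose and 7 fell; edgeR quasi-likelihood test, adjusted p under 0.05). Among all genes tested, 48.2% changed (23.4% higher and 24.7% lower), and the median log2 change was -0.01 against 0.46 for the 36 members. The filter that admits a gene uses its level in these same libraries, so these counts describe the members that passed it and support nothing further. Levels are given in CPM, counts after scaling to a library total of 1e+06. In bulk libraries, a change in the number of cells of a type and a change of RNA per cell cannot be told apart. The risers with the smallest adjusted p were the membrane protease Mmp14, the proteoglycan protease Adamts4, the inhibitor Timp3 and the gelatinase Mmp2, and the genes that fell furthest were Adamts17, Adamtsl2, Mmp16 and Mmp28. All Glenn libraries lay on one side of all sham libraries in 8 members (Adamts4, Adamts17, Adamtsl1, Mmp2, Mmp14, Mmp16, Mmp28 and Timp3), as they did in 5.83% of all genes tested. A change of at least 2-fold was called in 12 members and in 8.76% of all genes.

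**Figure D1:**
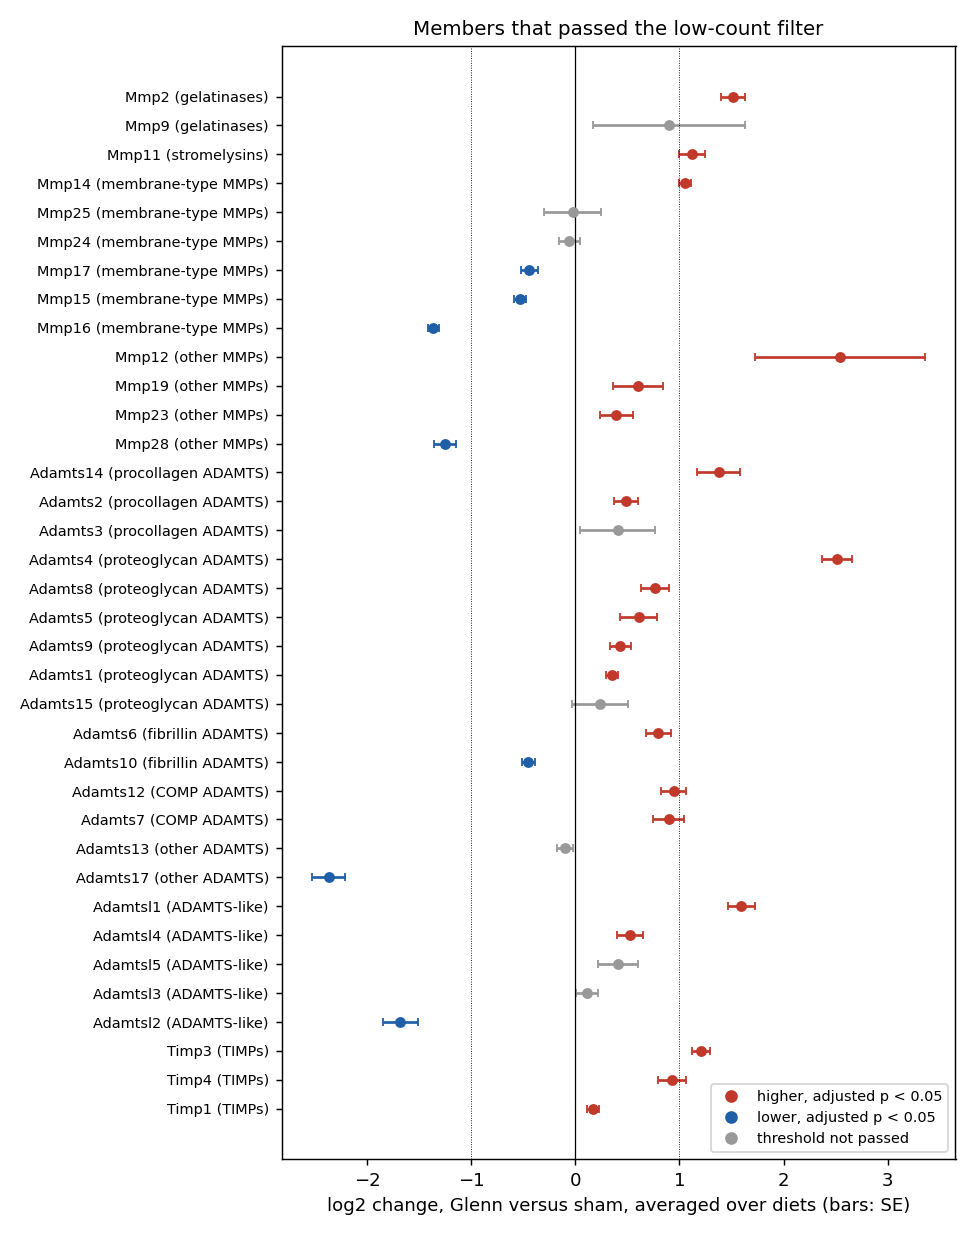
Log2 change, Glenn versus sham averaged over the 3 diets, of the 36 tested members in the order of their roles; points are fitted values, bars are standard errors, and dotted lines mark a 2-fold change. The values run from -2.37 for Adamts17 to 2.54 for Mmp12, whose wide bar rests on few counts.

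The secreted collagenases, the matrilysin and most stromelysins were at or near 0. The classical collagenases Mmp1, Mmp1b, Mmp8 and Mmp13 cut fibrillar collagen, Mmp7 (matrilysin) and the stromelysins Mmp3 and Mmp10 have broad substrates, and Mmp20 acts on tooth enamel. Mmp1, Mmp1b and Mmp27 had 0 counts in all 30 libraries, which allows up to 0.00244 CPM over the 1230 M counts of the series (3 counts, counting error only). The highest count in any library was 4 for Mmp3, 6 for Mmp7, 13 for Mmp8, 7 for Mmp10, 4 for Mmp13, 3 for Mmp20 and 12 for Mmp21. Mmp8, the neutrophil collagenase, had 54 counts in 10 of 15 sham libraries and 13 counts in 4 of 15 Glenn libraries. Its highest level, 0.378 CPM, was in sham control replicate 3, the library with the highest lymphocyte and Ptprc levels. The part of leukocytes in the Mmp8 values was not tested. Among the ADAMTS genes below the filter, Adamts16 reached 14 counts, Adamts18 10, Adamts19 17 and Adamts20 1. Adamts19 totalled 17 counts after sham and 71 after Glenn surgery. None of these 14 genes entered the test above. Without the filter, 11 of them could be fitted, and Mmp8 (log2 change -3.08) and Mmp21 (log2 change -2.92) were called lower after Glenn surgery (edgeR adjusted p 0.00718 and 0.0189), the latter from 27 counts in 6 sham libraries and 2 counts in 1 Glenn library. Adamts19 did not pass there (adjusted p 0.102). Mmp8 and Mmp21 are not among the 28 members called above, and their fitted values rest on few counts.

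These MMPs largely sit side by side on one chromosome, and they stood low together. In the RefSeq gene table of the rat assembly GRCr8 the longest run of neighbouring protein-coding members is Mmp13, Mmp12, Mmp1b, Mmp3, Mmp1, Mmp10, Mmp8, Mmp27, Mmp20 and Mmp7, 10 genes of which 1 (Mmp12) passed the filter. The promoter windows of the run also share letters that most windows found for other members lack. RefSeq's GRCr8 promoter table held windows for 39 of the 50 members (49 windows), and the 250 bases before each start were searched on both strands. It held no window for Mmp2, Mmp9, Mmp14, Mmp16, Mmp17, Mmp19, Adamts5, Adamts8, Adamts15, Adamts16 or Adamts19, all outside the run. TATAAA, the core of a TATA box, stood in 8 of the 10 windows of the run, in 15.4% of the 39 windows of the other members and in 12.9% of all 33469 windows in the table. TGANTCA, the letters AP-1 binds, stood in 7 of the 10, in 0 of the other members' windows and in 6.34% of all. GGGCGG, the core of a GC box, stood in 0 of the 10, in 53.8% of the other members' windows and in 30.5% of all. N stands for any base. The 39 windows of the other members came from 29 genes, and Adamts13 alone had several, none with a match. These shares are therefore of windows and not of members. These are matches of letters and not shown binding sites.

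The next 6 windows are printed 5′ to 3′ on the gene's strand, up to the base before the start, with matches to the 3 motifs in capitals, where GGGCGG on the other strand reads CCGCCC. Mmp13, Mmp3 and Mmp12 are examples from the run that was at or near 0, and Mmp11, Timp3 and Mmp28 from members outside it that changed after the operation. Other windows differ from these examples. In the run, the windows of Mmp1b and Mmp27 held none of the 3 motifs. Outside it, those of Adamts4, Adamts17, Adamts6, Adamts12 and Timp4, which also changed, held none of them.
Mmp13, GRCr8 chr8:12782579-12782828, plus strand: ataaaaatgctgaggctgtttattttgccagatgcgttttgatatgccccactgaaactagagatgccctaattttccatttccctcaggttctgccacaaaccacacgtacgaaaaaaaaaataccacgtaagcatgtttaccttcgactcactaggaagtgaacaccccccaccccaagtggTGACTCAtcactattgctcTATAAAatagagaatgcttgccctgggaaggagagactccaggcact
Mmp3, GRCr8 chr8:12925031-12925280, plus strand: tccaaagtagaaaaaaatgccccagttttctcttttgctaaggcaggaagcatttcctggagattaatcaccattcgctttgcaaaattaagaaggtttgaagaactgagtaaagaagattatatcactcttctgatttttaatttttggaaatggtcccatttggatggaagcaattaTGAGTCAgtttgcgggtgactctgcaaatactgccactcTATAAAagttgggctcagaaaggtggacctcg
Mmp12, GRCr8 chr8:12866402-12866651, plus strand: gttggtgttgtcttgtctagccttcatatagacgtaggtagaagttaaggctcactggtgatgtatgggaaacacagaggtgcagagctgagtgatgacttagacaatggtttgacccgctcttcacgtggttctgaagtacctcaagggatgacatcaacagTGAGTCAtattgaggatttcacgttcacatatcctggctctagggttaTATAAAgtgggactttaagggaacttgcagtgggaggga
Mmp11, GRCr8 chr20:12730034-12730283, plus strand: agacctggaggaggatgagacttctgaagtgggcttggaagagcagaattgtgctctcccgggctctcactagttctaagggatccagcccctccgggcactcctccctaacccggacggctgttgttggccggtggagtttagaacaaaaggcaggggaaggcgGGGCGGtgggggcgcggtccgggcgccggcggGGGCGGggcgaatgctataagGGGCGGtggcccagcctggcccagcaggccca
Timp3, GRCr8 chr7:19459559-19459808, minus strand: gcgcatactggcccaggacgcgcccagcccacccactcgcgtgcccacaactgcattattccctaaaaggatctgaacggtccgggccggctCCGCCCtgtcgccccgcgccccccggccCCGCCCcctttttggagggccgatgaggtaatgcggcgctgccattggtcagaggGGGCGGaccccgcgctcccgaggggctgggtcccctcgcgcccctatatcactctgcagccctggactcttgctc
Mmp28, GRCr8 chr10:68762378-68762627, minus strand: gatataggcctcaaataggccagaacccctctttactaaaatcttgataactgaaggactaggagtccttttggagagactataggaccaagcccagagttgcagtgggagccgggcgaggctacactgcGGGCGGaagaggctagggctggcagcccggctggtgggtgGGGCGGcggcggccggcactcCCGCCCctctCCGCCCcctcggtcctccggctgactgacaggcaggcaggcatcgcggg
In the windows of Mmp13, Mmp3 and Mmp12 the TATAAA match begins 47, 32 and 39 bases before the start and the TGANTCA match 66, 71 and 87 bases before it. The windows of Mmp11 and Timp3 hold 3 GC-box matches each and that of Mmp28 holds 4, although Mmp11 and Timp3 rose and Mmp28 fell.

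The gelatinases were represented by Mmp2. Mmp2 (gelatinase A, ENSRNOG00000016695) cuts denatured collagen and the collagen IV of basement membranes, and its precursor is activated at the cell surface by Mmp14. After sham surgery it stood at 96.1, 91.8, 59.0, 67.6 and 68.2 CPM on the control diet, 59.1, 58.3, 51.8, 69.0 and 76.1 CPM on the deficient diet and 76.8, 66.2, 42.6, 69.2 and 46.4 CPM on the excess diet. After Glenn surgery it stood at 208, 139, 153, 181 and 170.02 CPM on the control diet, 212, 313, 217, 137 and 162 CPM on the deficient diet and 191, 178, 131, 185 and 232 CPM on the excess diet. Each Glenn library was above each sham library, and Glenn deficient replicate 2 was the highest of all (log2 change 1.51, SE 0.11, adjusted p 1.58e-11). Mmp9 (gelatinase B), known from neutrophils and macrophages, was barely detected, with 36 counts in 7 of 15 sham and 64 counts in 11 of 15 Glenn libraries. Its group levels were 0.0835 ± 0.133, 0.0814 ± 0.136 and 0.0161 ± 0.0242 CPM in the sham groups and 0.0975 ± 0.0864, 0.0915 ± 0.126 and 0.112 ± 0.109 CPM in the Glenn groups (SD, n = 5 each, in the order control, deficient and excess diet), and it did not pass the test (log2 change 0.90, SE 0.73, adjusted p 0.326).

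Of the 6 membrane-anchored MMPs, 1 rose, 3 fell and 2 did not pass the test. Mmp14 (MT1-MMP, ENSRNOG00000010947), which cuts collagen next to the cell and activates the Mmp2 precursor, was the one that rose. It stood at 52.7, 45.1, 47.7, 50.2 and 48.6 CPM on the control diet, 49.9, 57.4, 46.1, 52.7 and 55.2 CPM on the deficient diet and 35.1, 40.2, 36.9, 34.7 and 40.3 CPM on the excess diet after sham surgery. In the Glenn libraries the values were 111, 82.7, 72.8, 91.7 and 91.4 CPM on the control diet, 102, 105, 114, 99.99 and 108 CPM on the deficient diet and 69.1, 88.3, 93.2, 103 and 110.4 CPM on the excess diet. The lowest Glenn library, on the excess diet, was above the highest sham library, on the deficient diet (log2 change 1.05, SE 0.06, adjusted p 3.93e-15). Mmp16 (MT3-MMP, ENSRNOG00000005708), a related transmembrane protease, went the other way. It stood at 42.1, 46.3, 52.6, 40.5 and 48.2 CPM on the control diet, 43.9, 39.8, 55.8, 45.3 and 44.3 CPM on the deficient diet and 47.1, 51.8, 43.1, 41.7 and 43.6 CPM on the excess diet after sham surgery. In the Glenn libraries it stood at 15.9, 15.8, 14.4, 17.2 and 16.5 CPM on the control diet, 19.5, 17.6, 18.8, 16.3 and 17.4 CPM on the deficient diet and 21.7, 18.2, 21.2, 20.9 and 16.7 CPM on the excess diet. The arms did not overlap, the diets of an arm did, and this was the smallest adjusted p of all members (log2 change -1.36, SE 0.05, adjusted p 5.16e-18).

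Mmp15 (MT2-MMP), also transmembrane, fell with overlapping arms. Its means were 197 ± 9.38, 182 ± 19.6 and 189 ± 20.1 CPM in the sham groups and 143 ± 24.5, 124 ± 6.53 and 124 ± 13.4 CPM in the Glenn groups (SD, n = 5 each, diets in the same order; log2 change -0.53, SE 0.06, adjusted p 4.37e-09). Mmp17 (MT4-MMP), held to the membrane by a lipid anchor, stood at 33.9 ± 5.27, 30.1 ± 3.65 and 31.6 ± 2.88 CPM in the sham groups and 19.8 ± 2.56, 24.6 ± 6.05 and 25.4 ± 5.39 CPM in the Glenn groups (SD, n = 5 each; log2 change -0.44, SE 0.08, adjusted p 3.33e-05). Among RT1-CE16-low libraries alone its change was -0.27 and no longer passed the threshold (adjusted p 0.0652). Mmp24 (MT5-MMP) and Mmp25 (MT6-MMP, lipid-anchored) did not pass the averaged test (log2 change -0.06, SE 0.10, adjusted p 0.664 for Mmp24). Mmp24 had log2 changes of -0.20 (control diet), -0.48 (deficient diet) and 0.50 (excess diet), of which the deficient-diet value alone passed (adjusted p 0.0449) and was lost in 11 of the 30 fits that each left out 1 library (adjusted p up to 0.128) and in series A alone. Mmp25 was low, at 0.730 ± 0.445, 0.939 ± 0.530 and 0.785 ± 0.250 CPM in the sham groups and 0.686 ± 0.428, 0.891 ± 0.290 and 0.844 ± 0.251 CPM in the Glenn groups (SD, n = 5 each; log2 change -0.03, SE 0.27). Within 1 structural class, Mmp14 and Mmp16 moved in opposite directions in all 3 diets.

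**Figure D2:**
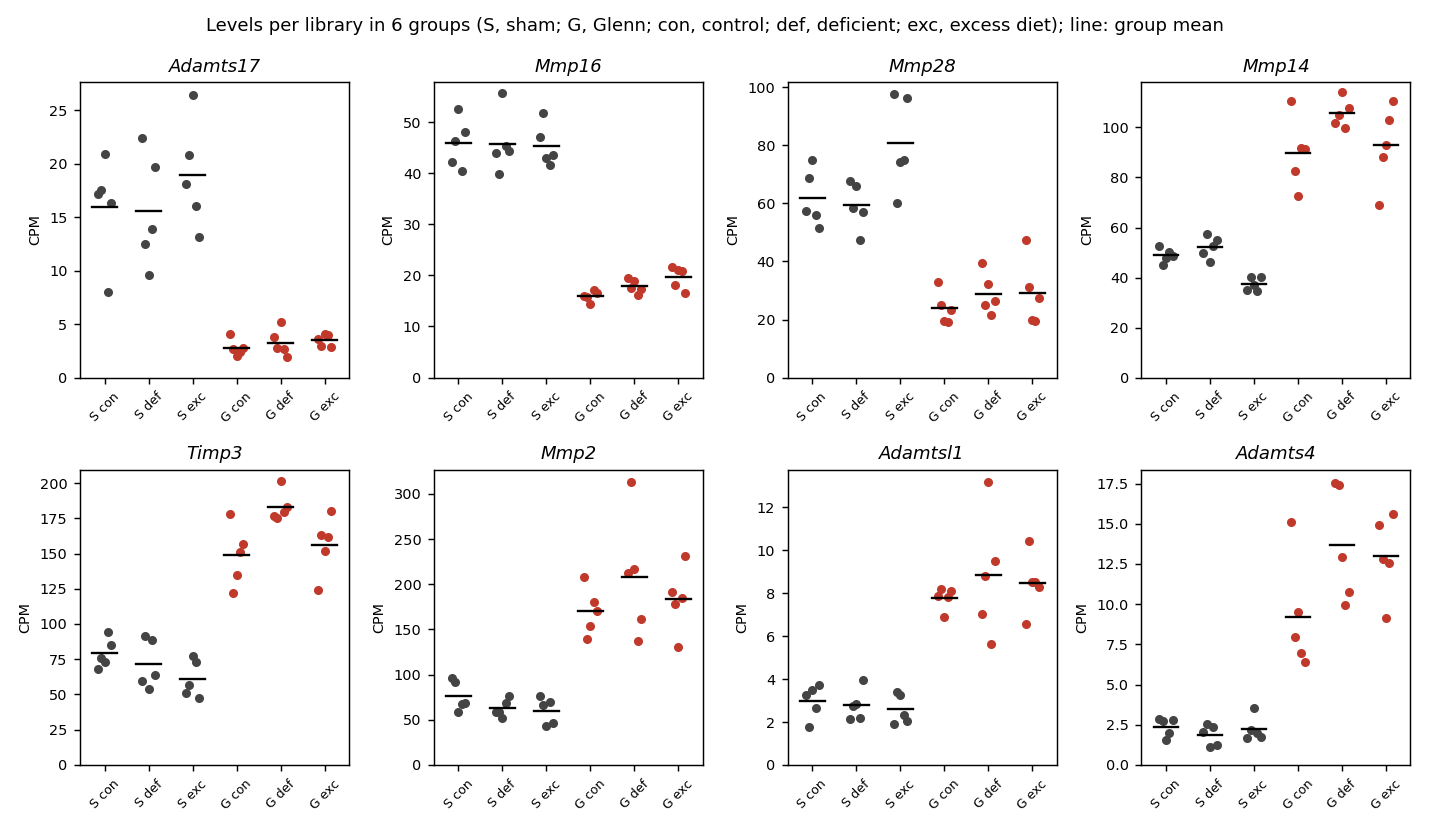
CPM in each library (points) and the group mean (line) for the 8 members whose Glenn libraries all lay on one side of all sham libraries; S is sham, G is Glenn, and con, def and exc are the diets. Adamts17, Mmp16 and Mmp28 are low in the 15 Glenn libraries, and the other 5 genes are high in them; each axis starts at 0 and has its own scale.

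The remaining tested MMPs were stromelysin-3, epilysin and 3 of low level. Mmp11 (stromelysin-3, ENSRNOG00000028344) is cut by furin inside the cell and leaves it active. It stood at 5.37, 3.60, 5.23, 5.996 and 6.74 CPM on the control diet, 3.00, 4.08, 5.40, 2.91 and 4.57 CPM on the deficient diet and 3.41, 4.71, 5.09, 4.88 and 5.47 CPM on the excess diet after sham surgery. The Glenn values were 14.96, 6.34, 9.30, 11.4 and 11.1 CPM on the control diet, 12.1, 13.8, 8.91, 17.9 and 11.6 CPM on the deficient diet and 5.30, 7.15, 9.74, 10.6 and 11.6 CPM on the excess diet. The arms overlapped, since Glenn control replicate 2 and Glenn excess replicate 1 lay within the sham range (log2 change 1.12, SE 0.12, adjusted p 1.08e-08). Mmp28 (epilysin, ENSRNOG00000047940), known from epithelial cells of the airway among others, fell. It stood at 57.4, 68.7, 75.0, 56.0 and 51.4 CPM on the control diet, 67.8, 58.3, 66.0, 47.3 and 57.0 CPM on the deficient diet and 97.8, 60.3, 74.4, 75.1 and 96.3 CPM on the excess diet after sham surgery. With the Glenn operation it stood at 32.8, 24.9, 19.6, 19.0 and 23.4 CPM on the control diet, 39.5, 25.1, 32.4, 21.4 and 26.2 CPM on the deficient diet and 47.3, 31.1, 19.96, 19.4 and 27.3 CPM on the excess diet. The highest Glenn and the lowest sham libraries came close without overlapping, both at 47.3 CPM as rounded (log2 change -1.25, SE 0.10, adjusted p 5.36e-11). Epithelial markers, mostly Sftpc, summed to a median of 31561 CPM in sham libraries and 22469.5 CPM in Glenn libraries, with overlapping arms. Of the 7 markers, Sftpb and Sftpc fell, Ager and Foxj1 rose, and Epcam, Cdh1 and Scgb1a1 did not pass the test. Their part in the change of Mmp28 was not tested. The gene C10h17orf50 overlaps Mmp28 and moved the same way (log2 change -1.42, from 1.66 to 0.609 CPM). Whether counting used strand is not given in the sources used here, so reads of the pair cannot be told apart.

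Mmp19, a secreted MMP also known from vessels, and Mmp23, which carries its own cysteine-rich domain, passed the averaged test narrowly. Mmp19 stood at 4.11 ± 2.84, 2.54 ± 1.17 and 3.70 ± 1.70 CPM in the sham groups and 4.39 ± 1.84, 6.07 ± 1.302 and 5.18 ± 1.64 CPM in the Glenn groups (SD, n = 5 each; log2 change 0.60, SE 0.24, adjusted p 0.0377), and Mmp23 at 1.98 ± 0.785, 1.63 ± 0.475 and 1.37 ± 0.275 CPM in the sham groups and 2.30 ± 0.336, 2.14 ± 0.217 and 1.93 ± 0.797 CPM in the Glenn groups (SD, n = 5 each; log2 change 0.39, SE 0.16, adjusted p 0.0422). Their calls were lost in 14 and 15, respectively, of the 30 fits without 1 library (adjusted p up to 0.0850 and 0.0849), and in series A alone. Mmp12, the macrophage elastase, rested on 17 counts in 4 of 15 sham libraries and 116 counts in 11 of 15 Glenn libraries. Its fitted change (log2 change 2.54, SE 0.82, adjusted p 0.0112) depends on the prior count and is no bound. Mmp12 passed the filter through its Glenn libraries, of which 5 and no sham library reached the 0.25 CPM the filter asks for, so a difference in that direction was built into its selection. Without it and Mmp9, which needed libraries of both arms to pass, 27 of 34 members were called in the averaged contrast (20 higher and 7 lower) and 24 of 34 on the deficient diet (17 higher and 7 lower). The adjusted p of Mmp12 was above 0.05 in series A alone and with limma voom. Its means were 0.0630 ± 0.0868, 0.0188 ± 0.0421 and 0.0103 ± 0.0231 CPM in the sham groups and 0.173 ± 0.239, 0.326 ± 0.183 and 0.0737 ± 0.0774 CPM in the Glenn groups (SD, n = 5 each). Macrophage markers moved with it in part, as given above, and their part in this change was not tested.

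Among the ADAMTS proteases, 10 of the 15 tested rose, 2 fell and 3 did not pass the test, in a contrast that called 48.2% of all genes (23.4% higher and 24.7% lower). The enzymes that cut versican and other proteoglycans included the ADAMTS with the highest log2 change. Adamts4 (ENSRNOG00000003538), an aggrecanase that also cuts versican, stood at 2.83, 2.74, 1.57, 1.97 and 2.81 CPM on the control diet, 2.07, 2.54, 1.13, 2.33 and 1.26 CPM on the deficient diet and 1.67, 2.15, 3.51, 1.96 and 1.73 CPM on the excess diet after sham surgery. After Glenn surgery it stood at 15.1, 7.96, 9.53, 6.96 and 6.43 CPM on the control diet, 17.5, 17.4, 12.9, 9.92 and 10.7 CPM on the deficient diet and 14.9, 12.8, 9.15, 12.6 and 15.6 CPM on the excess diet. No library of the arms overlapped, and the lowest Glenn values were on the control diet (log2 change 2.52, SE 0.15, adjusted p 1.27e-14). Adamts1, a versican-cutting protease that also binds vascular growth factor, was detected at 433 ± 19.1, 485 ± 31.2 and 537 ± 64.4 CPM in the sham groups and 543 ± 69.9, 631 ± 48.2 and 684 ± 102 CPM in the Glenn groups (SD, n = 5 each) and rose modestly (log2 change 0.35, SE 0.06, adjusted p 6.03e-06). Adamts8, a relative of the aggrecanases, stood at 8.28 ± 2.16, 8.08 ± 1.63 and 7.21 ± 2.23 CPM in the sham groups and 11.9 ± 2.42, 16.2 ± 5.52 and 12.0 ± 2.25 CPM in the Glenn groups (SD, n = 5 each; log2 change 0.76, SE 0.13, adjusted p 2.80e-05). Adamts5, the other main aggrecanase, stood at 3.82 ± 2.09, 3.24 ± 1.53 and 2.83 ± 1.17 CPM in the sham groups and 5.17 ± 0.739, 5.88 ± 0.676 and 4.59 ± 1.61 CPM in the Glenn groups (SD, n = 5 each; log2 change 0.61, SE 0.18). Adamts9, a versican-cutting protease, stood at 10.5 ± 1.47, 9.90 ± 2.85 and 10.997 ± 2.58 CPM in the sham groups and 14.1 ± 2.12, 14.0 ± 1.60 and 14.1 ± 1.77 CPM in the Glenn groups (SD, n = 5 each; log2 change 0.43, SE 0.10). Adamts8, Adamts5 and Adamts9 rose with overlapping arms, and Adamts15 did not pass the test, at 25.1 ± 14.4, 21.0 ± 13.3 and 12.0 ± 4.86 CPM in the sham groups and 27.6 ± 18.1, 21.8 ± 7.10 and 20.6 ± 9.72 CPM in the Glenn groups (SD, n = 5 each; log2 change 0.24, SE 0.27, adjusted p 0.494).

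The procollagen N-proteinases trim the ends of fibrillar collagens, and 2 of 3 rose. Adamts14 (ENSRNOG00000000563) stood at 2.98, 1.38, 1.39, 1.53 and 1.64 CPM on the control diet, 2.77, 2.30, 0.722, 1.59 and 1.32 CPM on the deficient diet and 0.929, 0.824, 0.545, 2.24 and 2.08 CPM on the excess diet after sham surgery. In the Glenn libraries the values were 3.04, 3.02, 2.46, 3.48 and 3.51 CPM on the control diet, 4.95, 3.30, 7.62, 2.88 and 4.17 CPM on the deficient diet and 3.43, 5.02, 1.99, 5.10 and 5.32 CPM on the excess diet. The arms overlapped, and sham control replicate 1 stood above the other libraries of its group (log2 change 1.38, SE 0.20, adjusted p 2.02e-06). Adamts2 stood at 14.1 ± 1.85, 13.5 ± 1.72 and 10.1 ± 1.74 CPM in the sham groups and 14.6 ± 2.68, 21.6 ± 5.40 and 16.7 ± 5.94 CPM in the Glenn groups (SD, n = 5 each; log2 change 0.48, SE 0.12, adjusted p 0.000978), with a log2 change on the control diet of 0.05. In the RT1-CE16-low libraries alone the averaged call of Adamts2 was lost (adjusted p 0.0822). Adamts3, which also helps to activate the lymphatic growth factor VEGF-C, was low, at 0.577 ± 0.286, 0.761 ± 0.347 and 0.461 ± 0.262 CPM in the sham groups and 0.844 ± 0.820, 0.937 ± 0.194 and 0.835 ± 0.593 CPM in the Glenn groups (SD, n = 5 each; log2 change 0.41, SE 0.36), and did not pass. The pair that cuts cartilage oligomeric matrix protein rose. Adamts7 stood at 2.71 ± 0.931, 3.00 ± 0.859 and 3.43 ± 0.882 CPM in the sham groups and 5.66 ± 1.03, 6.98 ± 2.16 and 4.18 ± 1.21 CPM in the Glenn groups (SD, n = 5 each; log2 change 0.90, SE 0.15, adjusted p 9.10e-06) and Adamts12 at 6.17 ± 1.08, 7.04 ± 0.846 and 7.66 ± 2.20 CPM in the sham groups and 11.2 ± 2.38, 15.6 ± 4.81 and 13.1 ± 3.97 CPM in the Glenn groups (SD, n = 5 each; log2 change 0.94, SE 0.12, adjusted p 1.43e-07).

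The fibrillin-related pair split. Adamts6 rose from 3.23 ± 0.737, 4.17 ± 0.604 and 3.15 ± 0.461 CPM to 5.81 ± 0.958, 5.54 ± 1.64 and 6.80 ± 1.998 CPM (SD, n = 5 each; log2 change 0.80, SE 0.12, adjusted p 2.89e-06), and its partner Adamts10 fell from 124 ± 8.82, 119 ± 15.5 and 129.7 ± 14.7 CPM to 79.2 ± 13.1, 96.4 ± 9.69 and 94.4 ± 11.6 CPM (SD, n = 5 each; log2 change -0.45, SE 0.06, adjusted p 2.68e-07). Adamts17 (ENSRNOG00000037080), linked by its mutations to short stature with lens dislocation as Adamts10 is, fell furthest of all members. It stood at 17.2, 17.5, 20.9, 8.04 and 16.3 CPM on the control diet, 22.4, 12.5, 9.60, 13.9 and 19.7 CPM on the deficient diet and 18.1, 20.8, 26.4, 16.0 and 13.2 CPM on the excess diet after sham surgery. The Glenn values were 4.06, 2.63, 2.05, 2.37 and 2.74 CPM on the control diet, 3.78, 2.76, 5.23, 2.66 and 1.91 CPM on the deficient diet and 3.59, 2.93, 4.10, 3.99 and 2.85 CPM on the excess diet. The highest Glenn library was below the lowest sham library, and sham control replicate 4 was the lowest of the sham arm (log2 change -2.37, SE 0.16, adjusted p 4.02e-13). Adamts13, which cuts von Willebrand factor, did not pass the test, at 6.48 ± 0.835, 6.63 ± 0.738 and 5.81 ± 0.656 CPM in the sham groups and 5.87 ± 1.26, 5.64 ± 0.497 and 6.07 ± 0.687 CPM in the Glenn groups (SD, n = 5 each; log2 change -0.10, SE 0.08, adjusted p 0.317).

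The ADAMTS-like proteins lack the protease domain and sit in the matrix, several of them on fibrillin microfibrils. Adamtsl1 (punctin, ENSRNOG00000006956) stood at 3.25, 1.75, 3.49, 2.65 and 3.72 CPM on the control diet, 2.15, 2.74, 2.86, 2.19 and 3.98 CPM on the deficient diet and 1.90, 3.38, 3.27, 2.32 and 2.05 CPM on the excess diet after sham surgery. With the Glenn operation it stood at 7.86, 8.18, 6.90, 7.83 and 8.12 CPM on the control diet, 7.02, 8.80, 13.2, 5.63 and 9.51 CPM on the deficient diet and 6.56, 10.4, 8.53, 8.53 and 8.31 CPM on the excess diet. It rose without overlap of the arms (log2 change 1.59, SE 0.13, adjusted p 2.32e-11). Adamtsl2 (ENSRNOG00000027742), a fibrillin- and TGF-beta-binding protein mutated in geleophysic dysplasia, fell. It stood at 8.25, 8.29, 9.58, 4.32 and 4.79 CPM on the control diet, 7.55, 10.4, 9.26, 10.4 and 7.85 CPM on the deficient diet and 9.99, 8.53, 6.81, 5.99 and 7.08 CPM on the excess diet after sham surgery. After Glenn surgery it stood at 1.52, 0.722, 1.26, 2.70 and 1.87 CPM on the control diet, 2.81, 4.27, 2.78, 2.61 and 1.78 CPM on the deficient diet and 3.05, 5.24, 1.78, 3.45 and 1.66 CPM on the excess diet. Of the Glenn libraries, excess replicate 2 alone reached the sham range, and the Glenn control group had the lowest mean (log2 change -1.68, SE 0.17, adjusted p 1.87e-09). Adamtsl4 rose, at 13.4 ± 2.93, 11.9 ± 2.80 and 10.8 ± 1.77 CPM in the sham groups and 17.6 ± 4.41, 18.5 ± 1.83 and 16.0 ± 5.20 CPM in the Glenn groups (SD, n = 5 each; log2 change 0.52, SE 0.12, adjusted p 0.000941), a call that the RT1-CE16-low libraries alone did not give (adjusted p 0.0520). Adamtsl3 and Adamtsl5 did not pass (log2 change 0.11, SE 0.11 and log2 change 0.41, SE 0.19), and Adamtsl5 stood at 2.93 ± 1.53, 2.12 ± 0.384 and 1.19 ± 0.386 CPM in the sham groups and 3.13 ± 1.11, 2.84 ± 0.734 and 2.18 ± 0.814 CPM in the Glenn groups (SD, n = 5 each).

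All 3 TIMPs found by name rose, by different amounts. No gene was named Timp2, so its level was not followed. Timp3 (ENSRNOG00000004303) is bound to the matrix and also inhibits aggrecanases such as Adamts4. It stood at 67.8, 75.6, 72.7, 94.1 and 85.4 CPM on the control diet, 59.5, 91.4, 54.1, 88.5 and 63.7 CPM on the deficient diet and 50.7, 56.5, 77.6, 73.0 and 47.6 CPM on the excess diet after sham surgery. In the Glenn libraries the values were 178, 122, 135, 151 and 157 CPM on the control diet, 176, 175, 202, 179.7 and 183 CPM on the deficient diet and 124, 163, 151, 162 and 180.1 CPM on the excess diet. The arms did not overlap, and the 5 Glenn deficient libraries were close to each other except replicate 3 (log2 change 1.21, SE 0.09, adjusted p 2.89e-12). Timp4, a soluble inhibitor known from heart and vessels, stood at 3.06 ± 1.06, 3.94 ± 0.799 and 1.92 ± 0.522 CPM in the sham groups and 4.71 ± 1.14, 6.91 ± 1.29 and 5.26 ± 1.12 CPM in the Glenn groups (SD, n = 5 each; log2 change 0.93, SE 0.13, adjusted p 9.86e-07). Timp1, a soluble inhibitor, stood at 74.6 ± 7.63, 71.8 ± 6.31 and 71.5 ± 12.9 CPM in the sham groups and 81.6 ± 9.68, 83.3 ± 7.46 and 82.0 ± 9.72 CPM in the Glenn groups (SD, n = 5 each; log2 change 0.17, SE 0.06, adjusted p 0.0230). This smallest of the called changes was lost without Glenn deficient replicate 2 (adjusted p 0.0554) and among RT1-CE16-low libraries alone. Each TIMP gene overlaps a synapsin gene in RefSeq: Syn3 for Timp3, Syn2 for Timp4 and Syn1 for Timp1. Syn2 rose too (log2 change 1.92), from 0.191 ± 0.152 to 0.736 ± 0.316 CPM (SD, n = 15 each). Syn3 and Syn1 did not pass the test (-0.19 and -0.34).

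Within the 22 series A libraries alone, 25 members were called (18 higher and 7 lower), against 37.4% of all genes tested there. There the log2 changes were 1.62 for Mmp2, 0.99 for Mmp14, -1.28 for Mmp16, -1.12 for Mmp28, 1.04 for Mmp11, 2.47 for Adamts4, 1.19 for Adamts14, -2.40 for Adamts17, 1.71 for Adamtsl1, -1.48 for Adamtsl2 and 1.15 for Timp3. Within the 17 RT1-CE16-low libraries, 22 were called (16 higher and 6 lower), against 32.4% of all genes. The averaged contrast could not be made within series B or within the RT1-CE16-high libraries, which lack some groups.

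Mural and fibroblast markers moved with the operation, so the fit was repeated with their scores as covariates. The mural score did not overlap between the arms, so in these libraries it and the operation cannot be fully told apart. With both scores, 13 of the 28 members were still called (7 higher and 6 lower), against 11.4% of all genes tested. Mmp16 (-1.23), Adamts4 (2.38), Adamts17 (-2.47), Mmp2 (1.35), Mmp28 (-1.11), Mmp11 (1.08), Timp3 (1.00) and Timp4 (0.96) had log2 changes near their values without the scores. Adamtsl2 (-1.33), Mmp14 (0.78) and Adamtsl1 (1.04) were smaller and stayed past the threshold. Mmp15 (-0.63 from -0.53) and Mmp17 (-0.68 from -0.44) were larger and also stayed past it. The calls of 15 members were lost. Adamts14 went from 1.38 to 0.09, Adamts12 from 0.94 to 0.002 and Adamts8 from 0.76 to 0.14. Adamts2, Adamtsl4 and Mmp23 changed sign to -0.24, -0.13 and -0.05. Adamts7 (0.48 from 0.90) and Adamts5 (0.27 from 0.61) were smaller. Adamts1 (0.34 from 0.35), Mmp19 (0.58 from 0.60), Adamts9 (0.37 from 0.43), Adamts10 (-0.38 from -0.45) and Adamts6 (0.61 from 0.80) lost the call with values closer to those without the scores. Timp1 (0.29 from 0.17) and Mmp12 (3.83 from 2.54) lost it with larger values, and the standard errors were wider throughout these 15 (for Adamts1, 0.14 against 0.06).

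**Figure D3:**
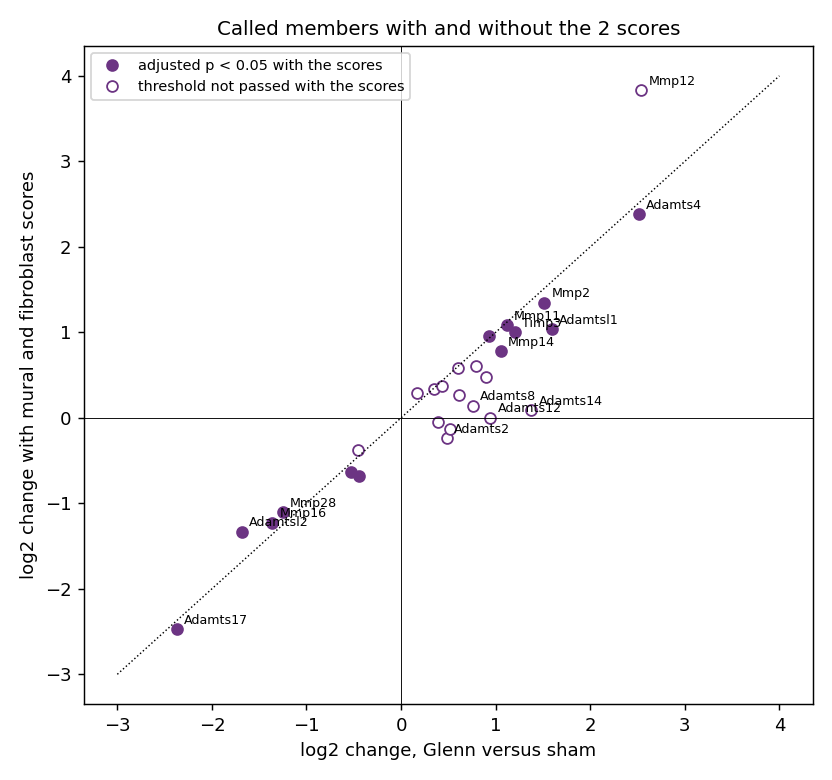
Log2 change, Glenn versus sham averaged over diets, of the 28 called members without (x axis) and with (y axis) the mural and fibroblast marker scores as covariates; filled points passed the threshold with the scores, and the dotted line marks equal values. Adamts17, Mmp16 and Adamts4 lie near the line, and Adamts14, Adamts12 and Adamts8 lie near 0 on the y axis.

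The change after Glenn surgery was also tested within each diet. On the control diet 18 of 36 members changed (11 higher and 7 lower), against 24.9% of all genes tested (11.8% higher and 13.1% lower). On the deficient diet 25 changed (18 higher and 7 lower), against 27.4% (13.7% in each direction). On the excess diet 18 changed (12 higher and 6 lower), against 21.9% (11.6% higher and 10.4% lower). The 3 contrasts compare separate libraries. They come from the same fit, with a shared estimate of the spread and a shared series term, so they are not fully independent. The deficient-diet count was 16 within series A and 15 within series B. On this diet the series A libraries are the RT1-CE16-low ones and the series B libraries the RT1-CE16-high ones, so a split by RT1-CE16 compares the same libraries. On the excess diet, all sham libraries were series A and RT1-CE16-low, and Glenn replicates 3, 4 and 5 were series B and RT1-CE16-high. There the operation cannot be fully told apart from series and RT1-CE16 level. The excess-diet count was 14 within series A and 22 without the series term. In all 3 diets, Adamts1, Adamts4, Adamts12, Adamtsl1, Mmp2, Mmp14, Timp3 and Timp4 rose and Adamts10, Adamts17, Adamtsl2, Mmp15, Mmp16 and Mmp28 fell. These 14 members compare with 13.5% of all genes that were called in the same direction in all 3 diets. Without one library, Timp4 on the control diet lost its call in 6 of 30 fits, Adamts1 lost it in 1 fit (control diet) and in 2 fits (excess diet), and Adamts10 (deficient diet) and Adamts12 (excess diet) lost it in 1 each. The libraries were sham control 1, 2, 3 or 5 or Glenn control 3 or 5 for Timp4 (adjusted p up to 0.153), Glenn control 1 (adjusted p 0.0518) and sham excess 1 or Glenn excess 1 (up to 0.149) for Adamts1, sham deficient 4 for Adamts10 (adjusted p 0.0564) and Glenn excess 2 for Adamts12 (adjusted p 0.0873). In series A alone the excess-diet log2 change of Adamtsl2 was -0.88 (adjusted p 0.148). There Adamts10 was at -0.24 (deficient diet) and -0.31 (excess diet; adjusted p 0.288 and 0.146), and Timp4 at 0.63 on the control and 0.70 on the deficient diet (adjusted p 0.0541 and 0.182).

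Other members passed in 1 or 2 diets. Mmp11 had log2 changes of 0.98 (control diet), 1.78 (deficient diet) and 0.60 (excess diet), and the excess-diet value did not pass (adjusted p 0.0698). Adamts7, with 1.05 (control diet), 1.15 (deficient diet) and 0.48 (excess diet), also missed the threshold on the excess diet. Adamts2 and Adamts14 had their smallest values on the control diet, with 0.05 (control diet), 0.68 (deficient diet) and 0.73 (excess diet) for Adamts2 and 0.80 (control diet), 1.32 (deficient diet) and 2.01 (excess diet) for Adamts14. Adamts8 likewise passed on the deficient and excess diets, with 0.52 (control diet), 0.96 (deficient diet) and 0.81 (excess diet), and Adamts6 on the control and excess diets, with 0.85 (control diet), 0.38 (deficient diet) and 1.16 (excess diet). Mmp17 passed on the control diet alone, with -0.77 (control diet), -0.36 (deficient diet) and -0.19 (excess diet). Besides Mmp12 and Mmp24, 4 members (Mmp19, Adamts5, Adamts9 and Adamtsl4) passed on the deficient diet alone, with 1.26, 1.02, 0.49 and 0.65 there. Leaving out 1 library ended the call of Adamts2 (without Glenn excess 2) and Adamts8 (without sham excess 1 or 3 or Glenn excess 2) on the excess diet. On the deficient diet it ended that of Adamts5 (without sham deficient 1 or 2), Adamts9 (without sham deficient 2, 3 or 5 or Glenn deficient 2 or 5), Adamtsl4 (without sham deficient 1, 3 or 5 or Glenn deficient 3), Mmp12 (without sham deficient 1, 2, 4 or 5 or Glenn deficient 4) and Mmp19 (without sham deficient 1 or 3). The highest adjusted p of these fits was 0.125. No difference between diets in the change after surgery passed its own test. The interaction of surgery and diet was called in 0 of 36 members (0.00618% of all genes), with 6 members at an unadjusted p under 0.05 (5.72% of all genes) and 0 by DESeq2 or limma voom. Its smallest adjusted p was 0.559, for Mmp11 and Mmp24.

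**Figure D4:**
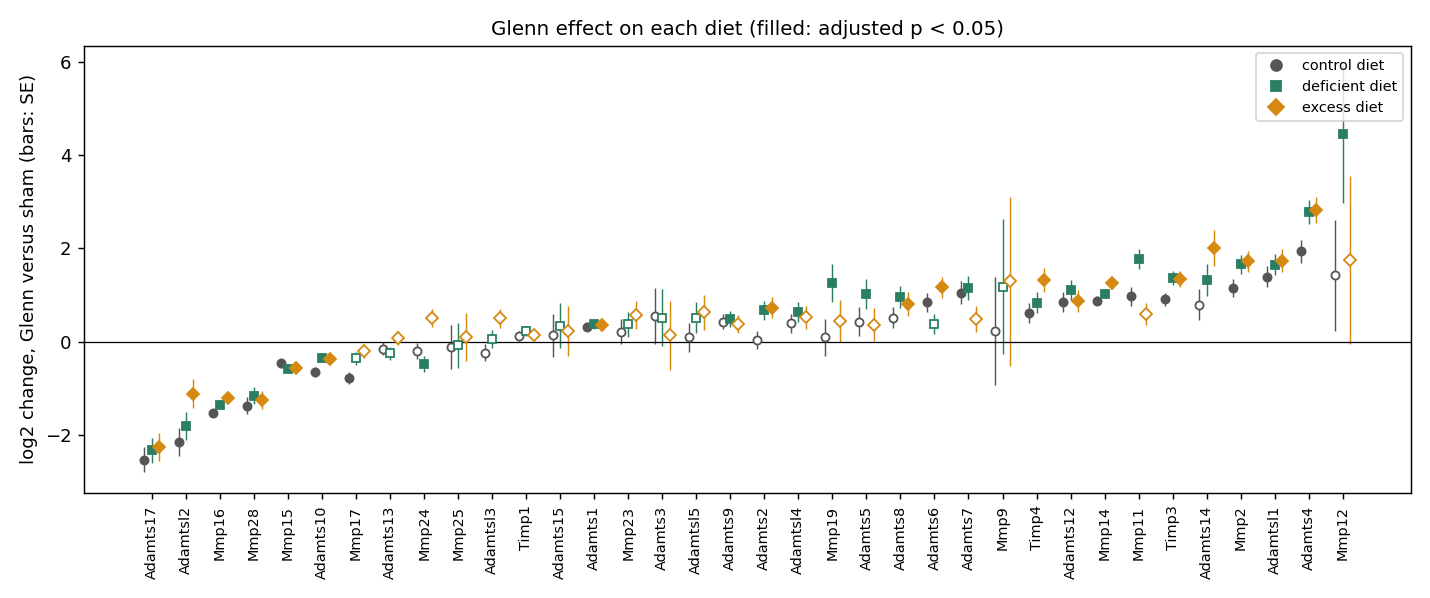
Log2 change, Glenn versus sham, of the 36 tested members on each diet; points are fitted values, bars are standard errors, and filled symbols passed adjusted p under 0.05. The 14 members with 3 filled symbols keep 1 direction, and Mmp24, at -0.20 (control diet), -0.48 (deficient diet) and 0.50 (excess diet), has its values on both sides of 0.

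Between diets within one arm, edgeR called no member in any of 6 contrasts. Deficient against control diet after sham surgery gave 0 of 36 calls (0% of all genes), with 2 at an unadjusted p under 0.05 (5.22% of all genes) and 0 by DESeq2 or limma voom. The smallest adjusted p was that of Mmp11, whose values are given above (log2 change -0.72, SE 0.24, adjusted p 0.547). After Glenn surgery the same diets gave 0 calls (0.00618% of all genes), with 11 at an unadjusted p under 0.05 (9.88% of all genes), 0 by DESeq2 and 1 by limma voom. That gene was Adamts4 (edgeR log2 change 0.72). The smallest edgeR adjusted p was shared by Adamtsl2 (log2 change 1.00, SE 0.31, adjusted p 0.273) and Adamts10 (log2 change 0.34).

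Excess against control diet after sham surgery gave 0 calls (0.241% of all genes), with 10 members at an unadjusted p under 0.05 (11.1% of all genes), 3 by DESeq2 and 1 by limma voom. The lowest adjusted p values were those of Adamtsl3 (log2 change -0.76, SE 0.19, adjusted p 0.0799), Mmp14 (log2 change -0.38, SE 0.10, adjusted p 0.0840) and Adamtsl5 (log2 change -1.302, SE 0.33, adjusted p 0.0840), the 3 that DESeq2 called. Adamtsl3 (ENSRNOG00000010840), punctin-2, stood at 7.87, 5.81, 9.85, 10.8 and 12.8 CPM on the control diet, 7.78, 7.87, 9.35, 10.3 and 7.40 CPM on the deficient diet and 3.80, 5.68, 7.03, 4.93 and 6.38 CPM on the excess diet after sham surgery. The Glenn values were 6.68, 6.86, 6.97, 8.26 and 11.3 CPM on the control diet, 8.33, 10.1, 8.66, 7.58 and 8.82 CPM on the deficient diet and 6.44, 7.62, 7.99, 9.81 and 10.4 CPM on the excess diet. The sham excess group had the lowest mean of its 6 groups, and 2 of its 5 libraries lay above the lowest sham control library. All sham excess libraries were RT1-CE16-low, while replicates 3, 4 and 5 of the sham control and sham deficient groups were RT1-CE16-high. These 3 sham control libraries held the highest Adamtsl3 values of their group. In contrasts of the excess diet after sham surgery, diet and RT1-CE16 level cannot be fully told apart. For Mmp14, the 5 sham excess libraries all lay below the 5 sham control libraries. The sum of fibroblast markers was lower in the same group, with a median of 1696 CPM against 2494 CPM in sham control libraries, with overlapping libraries. The sum of 4 mesothelial markers was 209.98 to 257 CPM in the sham excess libraries and 293 to 499 CPM in the sham control libraries, without overlap. The part of either in these values was not tested. Excess against deficient diet after sham surgery gave 0 calls (0.0124% of all genes; 4 at an unadjusted p under 0.05, as 5.28% of all genes, 0 by DESeq2 or limma voom), with Mmp14 first (log2 change -0.43, SE 0.11, adjusted p 0.349).

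After Glenn surgery, excess against control diet gave 0 calls (1.47% of all genes), with 8 members at an unadjusted p under 0.05 (13.9% of all genes) and 1 each by DESeq2 (Adamtsl2) and limma voom (Adamts4). Adamtsl2 was closest to the threshold (log2 change 1.16, SE 0.32, adjusted p 0.0613). Within the RT1-CE16-low libraries its difference was 1.85 (adjusted p 0.0457), and within the RT1-CE16-high libraries it was 0.02. Excess against deficient diet after Glenn surgery gave 0 calls (0% of all genes; 5 at an unadjusted p under 0.05, as 5.18% of all genes, 0 by DESeq2 or limma voom), with the smallest adjusted p for Mmp24 (log2 change 0.65, SE 0.18, adjusted p 0.425). Mmp24 (ENSRNOG00000047028) stood at 16.2, 15.3, 20.3, 20.9 and 16.5 CPM on the control diet, 15.6, 15.04, 18.1, 23.0 and 16.5 CPM on the deficient diet and 14.7, 12.1, 13.6, 14.0 and 15.1 CPM on the excess diet after sham surgery. With the Glenn operation it stood at 22.4, 15.8, 11.4, 13.4 and 14.6 CPM on the control diet, 14.8, 16.8, 8.12, 12.1 and 11.3 CPM on the deficient diet and 24.0, 17.1, 16.2, 18.7 and 23.3 CPM on the excess diet. The highest Glenn values were on the excess diet and on the control diet, and the Glenn groups overlapped. On the excess diet each Glenn library was above each sham library, though that contrast did not pass (edgeR adjusted p 0.0569). The sham excess libraries also lay below the sham control libraries. The contrasts within an arm share groups, so they are not independent of one another.

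Genes known to act with these proteases were read in the averaged contrast, in which 48.2% of all genes tested changed (23.4% higher and 24.7% lower). Of 15 tested regulators and activators (16 listed), 9 rose and 2 fell. Pcsk5, A2m and Plau, among those with the smallest adjusted p, all rose. Pcsk5 (log2 change 0.79) is a proprotein convertase, A2m (log2 change 4.35) a protease trap and Plau (log2 change 0.80) urokinase. A2m rose from 0.140 ± 0.185 to 2.51 ± 2.73 CPM (SD, n = 15 each). Of 18 tested substrates (21 listed), 13 rose and 3 fell. The basement membrane genes Col4a1 (log2 change 1.06) and Nid1 (log2 change 1.13), the fibril gene Col5a1 (log2 change 1.02) and fibronectin, Fn1 (log2 change 1.73), had the smallest adjusted p. Col1a1, Col1a2, Col3a1 and Dcn stand both in this list and among the fibroblast markers. Of 13 tested related metalloproteases and helpers (15 listed), 5 rose and 2 fell, a share near that of all genes, with Adam12 (log2 change 1.40), Papln (log2 change 1.26) and Adam10 (log2 change 0.42) higher and Adam17 (log2 change -0.44) lower. The median log2 changes of the 3 lists were 0.34, 0.79 and 0.12, against -0.01 over all genes.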

How the data were processed

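Estimated counts per gene of 30 libraries in 6 groups of 5 were taken as the authors deposited them. Per the submitters' processing notes, FastQC, Trim Galore, Picard, STAR and Salmon and the build mRatBN7.2 (rn7) were used, and per the labels' protocols RNA came from a PureLink kit and libraries from the SMART-Seq v4 low-input kit. Tool versions, annotation release and strand setting are not given in the sources used here. Of the estimated counts, 13.6% were not whole, and all were rounded. Genes passed edgeR 4.0.16's filterByExpr (at least 10 counts, and 15 in all), counts were scaled by TMM (0.94 to 1.06), and 1 quasi-likelihood fit (glmQLFit, robust; glmQLFTest) held the 6 group means and the library series (B from library number 500). P-values were adjusted by Benjamini-Hochberg over 16171 genes, and an adjusted p under 0.05 is a call. SE is the log2 change over the square root of F. RT1-CE16 counted as high above 100 CPM, and a library as male with Ddx3y above 10 CPM.

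Every member is named. Values per library are given for members called in the averaged contrast with a log2 change of at least 1 either way and a mean of at least 1 CPM, and for the smallest adjusted p of each diet contrast. Genes outside the families come from 3 lists, up to 4 each by adjusted p, of which 1 is not reported here. The members and lists were chosen with earlier results of these data known.

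Alternatives were no series term, series A alone, RT1-CE16 (and sex) as terms, DESeq2 size factors, no filter, the replicate number as a block, mural and fibroblast scores, limma 3.58.1 voom with quality weights, DESeq2 1.42.0, a fit of the compared groups alone, and leaving out each library. Fits within series B and within each RT1-CE16 level were added after seeing the data. The steps were tested on simulated data. Pairs of libraries of a group had Spearman correlations of 0.981 to 0.993 and a chi-square per degree of freedom of 20.5 to 122.3, above sampling noise. R 4.3.3, pandas 2.3.3 and matplotlib 3.10.9 were used.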

Additional observations from a re-analysis of the deposited data

Results flagged for a closer look

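In 17 of 222 sets of 5 libraries (the 36 tested members and the total count in each group), 1 library stood apart from the other 4. The gap to its neighbour took more than 0.71 of the group's range, and chance alone gives about 11.1 such sets. Total counts stood apart in Glenn control replicate 2, with 77.6 M against 38.2 to 42 M (gap share 0.904), and in sham control replicate 2, with 58.1 M against 34.9 to 41.6 M (gap share 0.711).

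In the Glenn arm, Adamtsl1 in Glenn control replicate 3 was the lowest at 6.90 CPM, against 7.83 to 8.18 CPM in the others (gap share 0.728). Adamts13 in Glenn control replicate 4 was the highest at 8.02 CPM, against 4.86 to 5.76 CPM in the others (gap share 0.714). Timp4 in Glenn control replicate 5 was the highest at 6.65 CPM, against 3.79 to 4.56 CPM in the others (gap share 0.732). Mmp19 in Glenn deficient replicate 1 was the lowest at 3.81 CPM, against 6.16 to 6.95 CPM in the others (gap share 0.747). Adamts12 in Glenn deficient replicate 3 was the highest at 23.9 CPM, against 12.3 to 15.2 CPM in the others (gap share 0.755). Timp3 in Glenn deficient replicate 3 was the highest at 202 CPM, against 175 to 183 CPM in the others (gap share 0.725). Of these, Adamts12 and Timp3 stood apart in the same library, Glenn deficient replicate 3. The mural markers of that library summed to 1825 CPM, the highest of all 30, against 605 to 933 CPM in the other 4 of its group. Their part in these values was not tested.

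In the sham arm, Adamts14 in sham control replicate 1 was the highest at 2.98 CPM, against 1.38 to 1.64 CPM in the others (gap share 0.836). Mmp25 in sham control replicate 2 was the highest at 1.52 CPM, against 0.442 to 0.583 CPM in the others (gap share 0.870). Mmp9 in sham control replicate 4 was the highest at 0.316 CPM, against 0 to 0.0757 CPM in the others (gap share 0.760). Mmp12 in sham deficient replicate 3 was the highest at 0.0942 CPM, against 0 CPM in the others (gap share 1.00). Mmp25 in sham excess replicate 1 was the highest at 1.22 CPM, against 0.614 to 0.736 CPM in the others (gap share 0.799). Adamts4 in sham excess replicate 3 was the highest at 3.51 CPM, against 1.67 to 2.15 CPM in the others (gap share 0.742). Adamts7 in sham excess replicate 3 was the lowest at 1.88 CPM, against 3.53 to 3.94 CPM in the others (gap share 0.800). Mmp12 in sham excess replicate 4 was the highest at 0.0516 CPM, against 0 CPM in the others (gap share 1.00). Adamts10 in sham excess replicate 5 was the lowest at 104 CPM, against 132 to 140.2 CPM in the others (gap share 0.761). The values of Mmp9, Mmp12 and Mmp25 rest on few counts.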

How the results depend on the processing

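The averaged count of 28 called members was 13 with the marker scores and 22 to 29 under the other settings. Without the filter it was again 28, but with 19 higher and 9 lower against 21 and 7: the calls of Mmp19 and Mmp23 were lost and Mmp8 and Mmp21 were called lower. The deficient-diet count of 25 was 16 in series A, 15 in series B, 15 and 16 in the RT1-CE16-low and -high libraries, and 9 with the scores. On that diet the series and RT1-CE16 splits are the same libraries. The excess-diet count of 18 was 8 with the scores and otherwise ran from 12 (RT1-CE16-low libraries), 13 (only the groups compared) and 14 (series A) to 22 (no series term). The control-diet count of 18 ran from 12 (RT1-CE16-low libraries) to 20 (limma voom). Excess against control diet after sham surgery went from 0 to 3 with DESeq2, 1 with limma voom and 2 with the replicate number as a block. Excess against control after Glenn surgery went from 0 to 1 with DESeq2, limma voom, the scores and the RT1-CE16-low libraries, and deficient against control after Glenn surgery to 1 with limma voom. The cause was not tested; fits within a series or level hold fewer libraries. With 1 library left out, counts ran from 26 to 29 (averaged), 17 to 19 (control), 21 to 26 (deficient), 15 to 19 (excess), 0 to 2 (excess against control after Glenn surgery; 2 without Glenn control replicate 1, 1 without Glenn control 4, Glenn excess 3 or 5, or sham deficient 2), 0 to 1 (excess against control after sham surgery; 1 without sham control replicate 2 or Glenn excess 1) and 0 to 0 otherwise. Of 89 called values, 73 kept their call in each of these fits. Mmp19's averaged call was lost without sham control 1, 2 or 4, Glenn control 3 or 4, sham deficient 1, 3 or 5, Glenn deficient 2 or 3, sham excess 3 or 4 or Glenn excess 2 or 5. That of Mmp23 was lost without sham control 2, 3 or 5, Glenn control 1 or 5, sham deficient 3 or 5, Glenn deficient 3, 4 or 5, sham excess 1, 3 or 4 or Glenn excess 2 or 5. The deficient-diet call of Mmp24 was lost without Glenn control 2, sham deficient 3, 4 or 5, Glenn deficient 3, 4 or 5, sham excess 3 or 4 or Glenn excess 1 or 4.

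With the scores, called log2 changes changed sign for Adamts2 (-0.24 averaged, -0.17 deficient, -0.16 excess), Adamtsl4 (-0.13 averaged, -0.11 deficient), Adamts14 (-0.15 deficient), Adamts12 (-0.24 excess) and Mmp23 (-0.045 averaged). No other setting reversed a called value. The labels do not say that replicate numbers pair the libraries, and not every pair deviated together: same-numbered libraries correlated at -0.246 to 0.231 over 15 pairs, 7 of them above 0.1, and 5 correlated best with their own number. By Ddx3y and RT1-CE16 level, the 6 libraries numbered 1 were all male and RT1-CE16-low and the 6 numbered 2 all female and RT1-CE16-low. The replicate block gave 29 averaged calls and 18 (control), 26 (deficient) and 20 (excess) by diet, and for excess against control diet after sham surgery it called Adamtsl3 and Adamtsl5 (adjusted p 0.0293 and 0.0334). Mmp9, Mmp12 and the members below the filter rest on few counts.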
